A study of Mus musculus with 36 samples.

Results

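The 10 genes described here encode integrin subunits that bind extracellular matrix: the α subunits Itga1, Itga2 and Itga11, which give collagen receptors, Itga3, which gives a laminin receptor, Itga5, Itga8 and Itgav, which give receptors for matrix proteins with an RGD motif, and the β subunits Itgb1, Itgb3 and Itgb5. They were chosen by gene symbol from the 39017 genes in the count table, and all 10 were among the 14439 genes that passed the filter on low counts. Itga2 passed it only through the co-cultures in which it was high, so its levels are described below. It is left out of the counts of members called, except in the closing section on processing, which says so. RNA was sequenced from C57BL/6 mouse pancreatic fibroblasts, grown alone (mono-culture, titled PSC in the labels) or for 48 h with tumour cells. The tumour cells were the sub-clones E, H, K, M, N, T and V, or KPC1, whose name is left unexplained in the labels, which gave 9 groups of 4 libraries. Fibroblasts were taken from the co-cultures by FACS on the GFP of the tumour cells, and the labels do not say whether the 4 libraries of a group came from separate cultures, so the p-values measure only the spread between these libraries.

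An integrin is a pair of one α and one β chain that spans the cell membrane and links the matrix outside to the actin cytoskeleton inside. Itgb1 pairs with most of the α chains named here, whereas Itgb3 and Itgb5 pair with Itgav. In fibroblasts these receptors bear traction on collagen and fibronectin, and αv integrins can release TGF-β from its latent complex.

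All 10 are protein-coding genes. In mm10 (GENCODE vM21) Itga1 (chr13:114953096-115101964) and Itga2 (chr13:114833081-114932100) lie side by side on the minus strand, and Itga8 (chr2:12106632-12301922, minus) and Itgav (chr2:83724397-83806916, plus) are on one chromosome. Itga3 (chr11:95044474-95076801, minus) and Itgb3 (chr11:104608000-104670476, plus) share another. The rest are Itga11 (chr9:62677826-62783982, plus), Itga5 (chr15:103344286-103366763, minus), Itgb1 (chr8:128685654-128733200, plus) and Itgb5 (chr16:33829665-33949338, plus).

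Library totals ran from 12532122 to 21985538 counts. The fibroblast markers summed to 10902 to 32116 CPM in each library, the counts scaled to library size and TMM factor. Single markers varied, and Lum had 2 to 245 counts and Fap 14 to 1403. In the mean of the co-cultures Fap (log2 fold change 5.20), Pdgfrb (0.91) and Thy1 (0.56) were higher at an adjusted p under 0.05. Lum (-1.61), Pdgfra (-0.81), Dcn (-0.73) and Col1a2 (-0.32) were lower, and Col1a1, Col3a1 and Vim did not pass. Of the leukocyte markers, Ptprc and Itgam had at most 3 counts in any library, but Cd14 had 69 to 369, Cd68 20 to 306, Itgb2 6 to 120 and Lyz2 up to 82. In the mean of the co-cultures Cd68 was higher (log2 fold change 1.07, adjusted p = 0.016) and Lyz2 lower (-3.67). Of the endothelial markers, Cdh5 and Tie1 had at most 2 counts, while Kdr had 8 to 91, Vwf 2 to 77 and Pecam1 2 to 30. The summed level of the leukocyte list was 17.3 to 21.9 CPM in mono-culture and 8.43 to 35.5 CPM in co-culture, and that of the endothelial list 2.28 to 4.02 and 1.68 to 6.63 CPM. Epithelial markers differed between mono-culture and co-culture. Their summed level over 12 genes was 2.81 to 4.46 CPM in mono-culture, while the medians of the co-cultures ran from 82.4 CPM with clone V to 535 CPM with clone N. Krt8, Krt18, Krt19 and Cdh1 made up 86.3% to 97.9% of that sum in the co-culture libraries. Cdh1 had up to 837 counts in a library, Itgb4 up to 1086, Ocln up to 99, Cldn3 up to 72 and Krt7 up to 40. Epcam, Cldn7, Cldn4 and Itgb6 had at most 9, 8, 2 and 2 counts in any library. In bulk RNA, a change in the share of cells of one type and a change in RNA per cell cannot be told apart.

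Promoters are shown for a pair of members from each of the 2 orders of lines described below, the pair with the highest Pearson r of log2 CPM over the 9 group means within its order. Itga8 and Itga11 had an r of 0.91, as did Itga1 with each of them, and Itga5 and Itgb1 had an r of 0.90. These are descriptions over group means of the same libraries. Each sequence is the 250 bases before the RefSeq start (GRCm38.p6, the mm10 build), 5′ to 3′ on the gene's strand, and capitals mark a GC box (GGGCGG) or a TEAD motif (CATTCC) on either strand.
Itga8, chr2:12301945-12302194, minus strand: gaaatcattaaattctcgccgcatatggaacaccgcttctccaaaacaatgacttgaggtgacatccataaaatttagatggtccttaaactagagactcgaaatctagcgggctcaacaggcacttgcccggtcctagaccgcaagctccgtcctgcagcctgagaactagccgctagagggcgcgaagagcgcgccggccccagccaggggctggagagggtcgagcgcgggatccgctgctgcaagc
Itga11, chr9:62677605-62677854, plus strand: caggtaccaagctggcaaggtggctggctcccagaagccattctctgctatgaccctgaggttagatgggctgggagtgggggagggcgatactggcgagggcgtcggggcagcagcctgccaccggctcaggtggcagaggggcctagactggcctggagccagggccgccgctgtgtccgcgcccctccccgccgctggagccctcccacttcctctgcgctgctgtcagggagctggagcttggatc
Itga5, chr15:103366792-103367041, minus strand: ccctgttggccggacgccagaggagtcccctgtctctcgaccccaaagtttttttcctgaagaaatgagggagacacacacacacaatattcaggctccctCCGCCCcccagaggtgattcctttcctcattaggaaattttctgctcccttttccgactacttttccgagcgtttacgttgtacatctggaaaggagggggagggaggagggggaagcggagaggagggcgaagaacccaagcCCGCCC
Itgb1, chr8:128685404-128685653, plus strand: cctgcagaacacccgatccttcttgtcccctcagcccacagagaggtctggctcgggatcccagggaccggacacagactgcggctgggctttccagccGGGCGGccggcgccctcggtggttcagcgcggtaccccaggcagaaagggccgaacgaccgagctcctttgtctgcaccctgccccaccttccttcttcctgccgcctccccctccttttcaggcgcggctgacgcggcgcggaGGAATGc

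Promoters were matched for 9 of the 10 members. A GC box was in the promoters of Itga3, Itga5, Itgb1 and Itgb5, and in 32.7% of all 32851 promoter windows of this length. The TEAD motif was in the window of Itgb1 and in 12.6% of all windows. None of the members' windows held the AP-1 motif TGANTCA, the TATA box TATAAA or the SRF CArG box, which were in 6.75%, 12.4% and 1.47% of all windows. The motifs did not overlap one another in the printed windows. These are matches of letters only.

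Levels between genes were compared per transcript length, as RPKM. In mono-culture Itgb1 was the most abundant member at 328 ± 12.6 RPKM (SD, n = 4), followed by Itgb5 at 68.0 ± 1.85, Itga5 at 43.1 ± 2.02 and Itgav at 40.6 ± 1.52 RPKM. Itga3 had 19.7 ± 2.91 RPKM. Itga11, Itga8, Itga1 and Itgb3 had means between 1.43 and 4.70 RPKM, and Itga2 had 0.02 RPKM. Itgb1 made up 82.5% ± 0.61 of the summed RPKM of the 3 β subunits.

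Each co-culture was compared with mono-culture, to ask which fibroblast transcripts differed after growth with each tumour line, by edgeR's quasi-likelihood test with Benjamini-Hochberg adjustment over all 14439 genes. The 8 comparisons share the mono-culture libraries. Every one of the 9 members counted that passed an adjusted p of 0.05 was higher in co-culture, and no member was called lower in any of the 8 lines or in their mean. Under other settings 2 were: Itga11 with clone V under 7 of them, DESeq2 included (-0.70), and Itga8 with KPC1 when only the 8 libraries compared were fitted (-0.39). The members called higher numbered 3 of 9 with clone E (16.5% of all genes higher, 15.5% lower), 5 with clone H (27.8% and 26.4%), 5 with clone K (10.4% and 8.69%) and 4 with clone M (12.2% and 10.8%). They numbered 7 with clone N (19.7% and 19.2%), 7 with clone T (25% and 24.7%), 3 with clone V (29.4% and 28.9%) and 4 with KPC1 (30.5% and 28.5%). In the mean of the 8 co-cultures 7 of 9 were higher, beside 26.1% of all genes higher and 26.6% lower. The median log2 fold change of the 9 members was 0.43 in that contrast, against 0.01 over all genes. Itga11 (0.39, SE 0.24, adjusted p = 0.18) and Itga3 (0.31, SE 0.25, adjusted p = 0.31) were the 2 that did not pass.

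**Figure D1:**
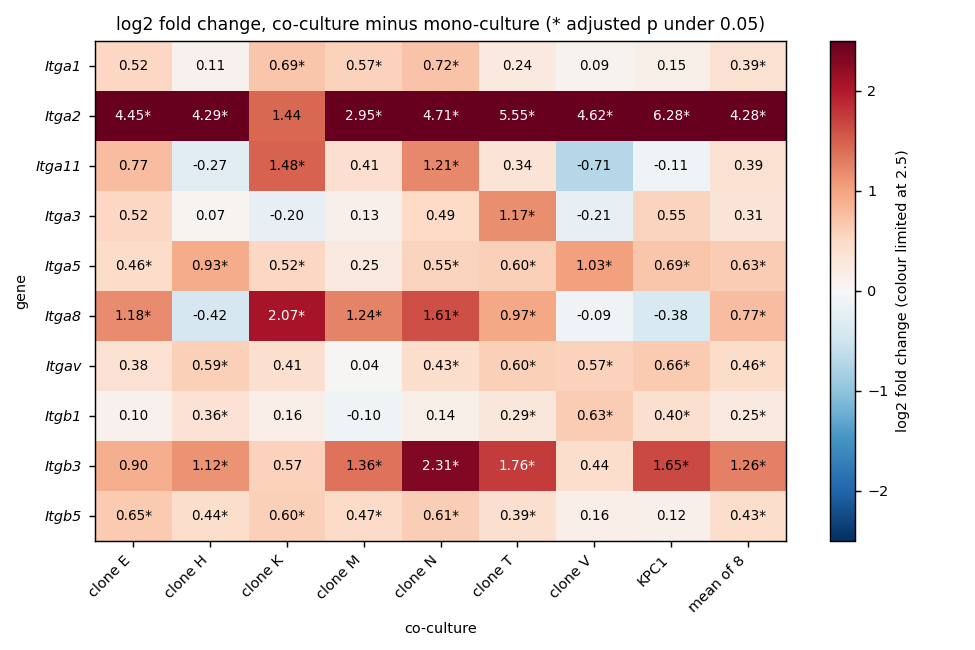
log2 fold change of each integrin gene (rows) in each co-culture and in the mean of the 8 (columns), co-culture minus mono-culture, with the value printed in each cell and an asterisk where the adjusted p was under 0.05. Every value with an asterisk is above 0, and the values of Itga2, up to 6.28 with KPC1, exceed the colour range and rest on 12 mono-culture counts.

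Levels of the members differed between co-cultures with different tumour lines, and the part of tumour-cell RNA in these differences was not tested. An F-test across the 8 co-cultures called all 9 members other than Itga2, beside 72% of all genes. Of the 28 pairs of lines, Itga8 differed in 16, Itga11 in 14, Itga5 and Itgb3 in 10 each, Itgb1 in 8, Itgb5 in 6, Itga1 in 5, and Itga3 and Itgav in 4 each, with p-values adjusted over all genes and pairs (28.2% of all gene and pair combinations were called). With the replicate number as a block, which is no pairing by the labels, Itga1 differed in 13 pairs, Itgb1 in 13 and Itgav in 7. Neighbours in the order of lines without the block did not pass for any member but one, Itga8 between clone T and clone V (adjusted p = 0.03).

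Among the collagen receptor chains, Itga11 encodes the α11 chain, a receptor for fibrillar collagen found on fibroblasts. Its mono-culture libraries had 25.2, 28.1, 17.9 and 18.5 CPM. With clone K they had 79.5, 74.9, 67.1 and 29.3 CPM, and with clone N 64.6, 54.8, 46.7 and 41.6 CPM. All 8 of these lay above the mono-culture range. The log2 fold change was 1.48 (SE 0.31, adjusted p = 9.3e-04) with clone K and 1.21 (SE 0.31, adjusted p = 0.0026) with clone N. With clone V the libraries had 6.77, 21.5, 14.0 and 12.7 CPM, of which 3 lay below the mono-culture range, and the log2 fold change of -0.71 (SE 0.32) did not pass (adjusted p = 0.057). Without clone V replicate 2 it was -1.01 and passed. With clone E 3 of 4 libraries lay above the mono-culture range, and the log2 fold change of 0.77 (SE 0.31) did not pass either (adjusted p = 0.057). Without clone E replicate 4 it was 0.98 and passed. Clone K exceeded clone V by 2.19 (SE 0.32, adjusted p = 6.0e-06) on the log2 scale.

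Itga1, the α1 chain of a receptor with a preference for basement membrane collagen, had 19.3 to 25.2 CPM in mono-culture. It was higher with clone K (25.96 to 41.5 CPM, log2 fold change 0.69, SE 0.21) and clone N (28.4 to 40.2 CPM, 0.72, SE 0.21), where all libraries lay above mono-culture. With clone M it passed at an adjusted p of 0.046, although 2 of 4 libraries lay above the mono-culture range, and the call was lost on leaving out any of 20 libraries (0.36 to 0.57). With clone K it was lost without mono-culture replicate 1 (0.63) or clone K replicate 2 (0.59). With clones E, H, T and V and KPC1 its values overlapped those of mono-culture, and it did not pass. With clone E the log2 fold change was 0.52 (SE 0.21, adjusted p = 0.054), and a call was gained on leaving out any of 6 libraries. Itga11 held 69.1% ± 6.31 of the summed RPKM of the 3 collagen receptor α chains in mono-culture, 78.5% ± 5.36 with clone K and 49.5% ± 5.82 with clone V. The log2 ratio of Itga11 to Itga1 changed by 0.50 with clone N and by -0.85 with clone V, each at the smallest p that 4 libraries against 4 can give in an exact two-sided permutation test (0.0286), and the adjusted p over 24 ratio tests was 0.098.

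**Figure D2:**
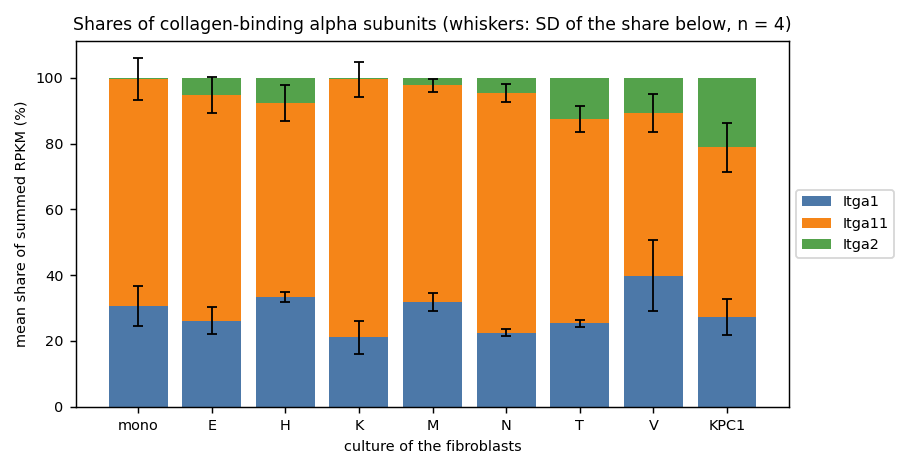
Mean share of Itga1, Itga11 and Itga2 in the summed RPKM of the 3 collagen receptor α chains (y axis, percent) in mono-culture and the 8 co-cultures (x axis). Stacked bars are means of 4 libraries, and whiskers show the SD of the Itga1 and Itga11 shares; Itga2 held 0.32% in mono-culture and 21.1% with KPC1.

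Itga2, the α2 chain of a collagen receptor best known from platelets and epithelia, was barely detected in mono-culture, with 1, 3, 0 and 8 counts. In co-culture it had 0.317 to 0.585 CPM with clone K, 4.76 to 10.2 CPM with clone T, and 28.7, 8.14, 11.3 and 5.13 CPM with KPC1. From the 12 mono-culture counts, the ratio of KPC1 to mono-culture was 81.7 (95% interval 46.5 to 159) and that of clone K was 2.75 (1.40 to 5.81), by an exact binomial interval that covers counting error only. KPC1 replicate 1 held 544 of the 952 KPC1 counts, and without it the ratio was 48.2 (27.3 to 94.0). The fitted log2 fold change with KPC1 was 6.28, and 5.57 without KPC1 replicate 1 and 7.27 without mono-culture replicate 4, which held 8 of the 12 mono-culture counts. Without that library the fitted values of the other 7 lines were higher too, running from 2.42 with clone K to 6.53 with clone T in place of 1.44 and 5.55, and with clone H the value was 3.57 without clone H replicate 3 (4.29 with it). Its libraries with clone V split, at 0.254, 1.204, 7.41 and 8.08 CPM. Mono-culture lies at the detection limit, so no call is drawn from these fits.

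Itga3, the α3 chain of a laminin receptor, passed in clone T alone. Mono-culture had 80.4, 90.4, 85.3 and 110.1 CPM, and clone T had 325, 142, 183 and 172 CPM, all above it. The log2 fold change was 1.17 (SE 0.33, adjusted p = 0.0041). Clone T also exceeded clones H, K, M and V, by 1.04 to 1.38 on the log2 scale, and its difference from clone E, clone N and KPC1 did not pass.

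**Figure D3:**
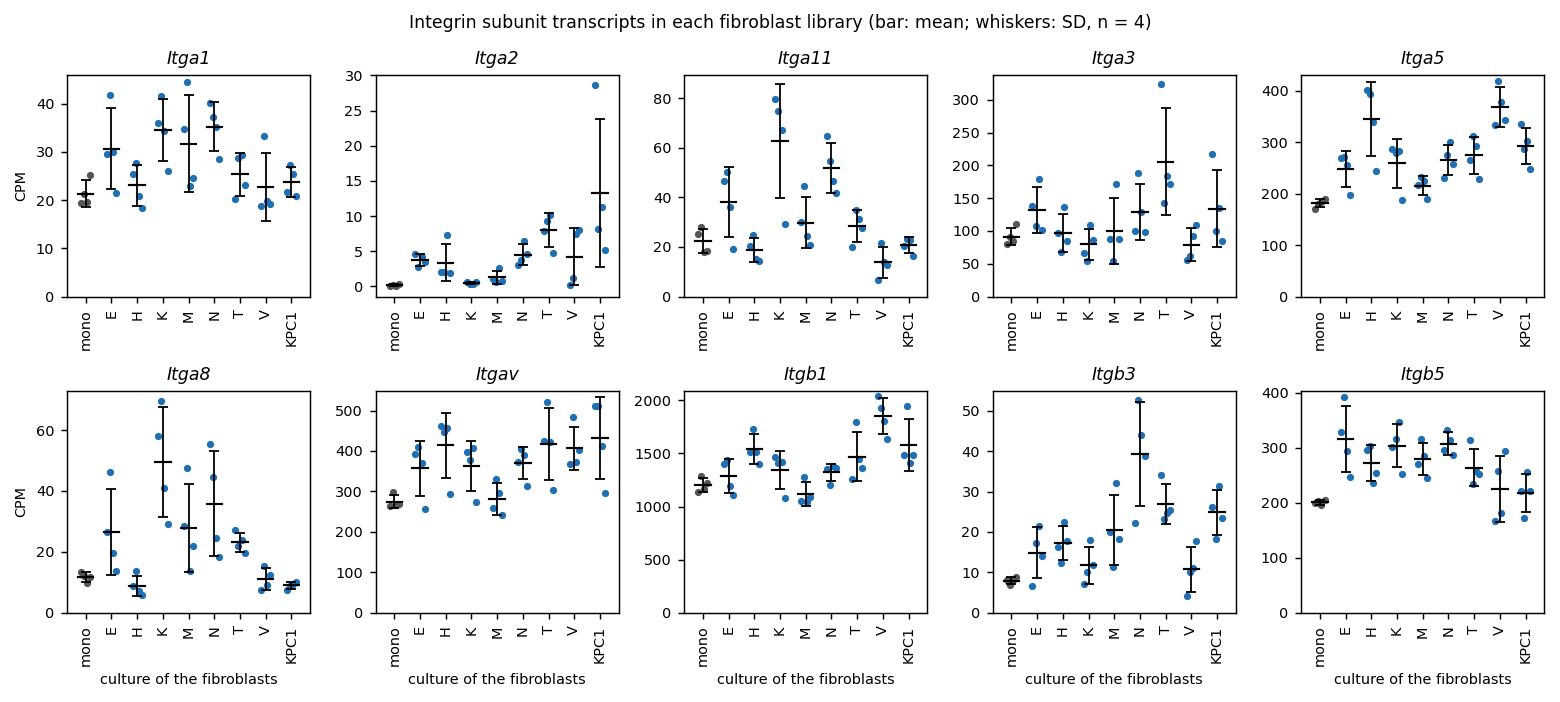
CPM of the 10 integrin genes (one panel each, y axis from 0) in each library of the 9 groups (x axis, sub-clones by letter). Points are libraries, bars are means and whiskers the SD (n = 4); Itga8 and Itga11 peak with clone K, Itga5 and Itgb1 with clone V, and Itgb3 with clone N.

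Of the RGD-binding α chains, Itga8 showed the widest spread between lines. It encodes the α8 chain, a receptor for nephronectin and fibronectin on mesenchymal cells. Mono-culture had 13.5, 11.9, 9.73 and 11.8 CPM. Clone K had 58.0, 69.7, 40.9 and 28.98 CPM, clone N had 55.4, 44.7, 24.6 and 18.3 CPM, and KPC1 had 7.59, 8.92, 9.55 and 10.2 CPM. The clone K and clone N libraries all lay above the mono-culture range, while 3 of 4 KPC1 libraries lay below it. The log2 fold change was 2.07 (SE 0.37, adjusted p = 1.6e-04) with clone K and 1.61 (SE 0.37, adjusted p = 9.1e-04) with clone N, and it also passed with clones M (1.24), E (1.18) and T (0.97). Without clone E replicate 2 or clone M replicate 2 the values in those lines were 0.77 and 0.86 and did not pass. With clone T the call was lost on leaving out clone T replicate 1 or 3 or mono-culture replicate 2, 3 or 4 (0.89 to 0.98). With clones H and V and KPC1 it did not pass (-0.42, -0.09 and -0.38), and clone K exceeded clone H by 2.49 (SE 0.38, adjusted p = 1.0e-05).

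Itga5, the α5 chain of the main fibronectin receptor, followed another order. It had 171 to 189 CPM in mono-culture. With clone V it had 333, 419, 378 and 344 CPM, and with clone H 402, 394, 339 and 244 CPM. All of these lay above mono-culture, and the log2 fold change was 1.03 (SE 0.14, adjusted p = 2.7e-07) with clone V and 0.93 (SE 0.14, adjusted p = 1.9e-06) with clone H. It passed in every line but clone M (0.25, SE 0.14, adjusted p = 0.20). Clone V exceeded clones E, K, M, N and T, by 0.43 to 0.78 on the log2 scale.

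Itgav, the α chain shared by receptors for vitronectin and latent TGF-β, had 265 to 299 CPM in mono-culture. It passed with clones H, N, T and V and with KPC1 (log2 fold change 0.43 to 0.66), and with clone M it had 242 to 331 CPM and differed by 0.04 on the log2 scale (SE 0.17), which did not pass. The clone N call (adjusted p = 0.045) was lost on leaving out any of 15 libraries (0.39 to 0.43). The only pairs of lines that differed were clone M against clone H, T, V or KPC1. The ratio of Itga5 to Itgav rose by 0.46 on the log2 scale with clone V and by 0.33 with clone H in the exact permutation test before adjustment (p = 0.0286), and by neither after it (adjusted p = 0.098).

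Itgb1, the common β chain, had 1138 to 1285 CPM in mono-culture. With clone V it had 2040, 1930, 1808 and 1635 CPM, all above mono-culture (log2 fold change 0.63, SE 0.12, adjusted p = 3.7e-05). It also passed with KPC1 (0.40), clone H (0.36) and clone T (0.29). With clone T the call was lost on leaving out clone T replicate 2 or 3 or mono-culture replicate 1, 3 or 4 (0.18 to 0.30). With clone M it had 1040 to 1281 CPM and 3 of 4 libraries lay below the mono-culture range, and the difference of -0.10 on the log2 scale (SE 0.12) did not pass (adjusted p = 0.58). Clone V exceeded clones E, K, M, N and T.

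Itgb5, which pairs with Itgav, had 196 to 206 CPM in mono-culture and passed in 6 lines, with log2 fold changes of 0.39 to 0.65. With clone M it did not pass without clone M replicate 2 (0.41), nor with clone T without clone T replicate 1 (0.30) or mono-culture replicate 1 (0.39). The lines where it did not pass were clone V (0.16, SE 0.15) and KPC1 (0.12, SE 0.15), and clones E, K and N each exceeded both. Itgb3, the other partner of Itgav and the β chain of the vitronectin receptor, had 6.82 to 8.73 CPM in mono-culture. With clone N it had 22.1, 52.5, 43.9 and 38.8 CPM, with clone T 34.1, 23.2, 24.7 and 25.4 CPM, and with KPC1 26.2, 18.3, 31.5 and 23.4 CPM. All 12 libraries lay above mono-culture, with log2 fold changes of 2.31 (SE 0.36), 1.76 (SE 0.36) and 1.65 (SE 0.36). Itgb3 also passed with clones M (1.36) and H (1.12), and did not with clones E (0.90), K (0.57) and V (0.44). The log2 ratio of Itgb3 to Itgb5 rose by 1.64 with clone N, 1.36 with clone T and 1.52 with KPC1. Each was at the smallest exact permutation p (0.0286, adjusted 0.098). By RPKM Itgb3 remained the least abundant of the 3 β chains, at 1.51% ± 0.52 of their sum with clone N.

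The members fell into 2 orders of lines, with Itga2, Itga3 and Itgb3 apart from both. Itga1, Itga8, Itga11 and Itgb5 had their highest means with clones K, N, M and E, and r among them was 0.76 to 0.91 over the 9 group means. Itga5, Itgav and Itgb1 had their 4 highest means with clones V, H and T and KPC1, with r of 0.84 to 0.90. Itga2 was not clearly apart from these, with r of 0.76 with Itgav, 0.60 with Itga5 and 0.48 with Itgb1. These r values are across group means that share libraries, and carry no p.

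Itga2, Itga3 and Itgb3 moved with the summed epithelial markers. Across the 8 line means r with the log2 epithelial sum was 0.73, 0.89 and 0.86, and across the 32 libraries, each centred on its line, 0.56, 0.81 and 0.65. The same centred r was -0.67 for Itga1, -0.66 for Itgb1, -0.54 for Itga8 and -0.48 for Itga11. Across the 8 line means r was 0.23 for Itga1, -0.35 for Itgb1, 0.16 for Itga8 and 0.33 for Itga11. These are descriptions over libraries that share depth and RNA. The part of tumour-cell RNA in these results was not tested. An alternative chosen after seeing the data left out the library highest in epithelial markers in each co-culture. The 7 calls of the mean contrast were then kept. In single lines Itgav with clone N (0.37), Itga8 with clone T (0.88) and Itgb5 with clone T (0.30) missed the threshold. The fit of Itga2 with clone M (2.31), from which no call is drawn, missed it too. The F-test across the lines then missed Itga1 (adjusted p = 0.074) and Itgav (adjusted p = 0.20).

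**Figure D4:**
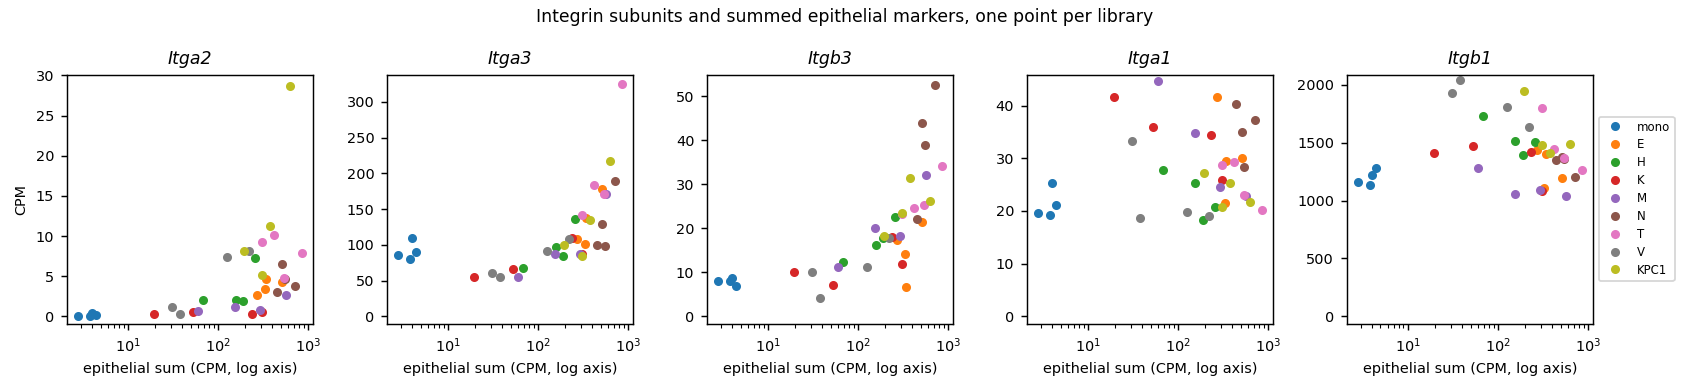
CPM of Itga2, Itga3, Itgb3, Itga1 and Itgb1 (y axes) against the summed CPM of 12 epithelial markers (x axis, log scale), one point per library, coloured by group. The mono-culture libraries sit at 2.81 to 4.46 CPM of epithelial markers and the co-culture libraries further right; Itga3 and Itgb3 are higher at larger sums.

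The ligands and partners of the integrins were taken from lists written with earlier results of these data known, each described in the mean of the 8 co-cultures. Of 10 collagen genes tested, 7 rose and 1 fell, with a median log2 fold change of 0.71, led by Col6a3 (1.51, SE 0.24) and Col4a2 (1.35, SE 0.18), while Col1a2 fell by 0.32 and Col1a1 did not pass (-0.17). Of 9 laminin genes 6 rose and 1 fell (median 0.83), with Lamb3 at 2.10 (SE 0.73) and Lama4 at 1.26 (SE 0.30), and Lama3 fell by 1.35. Of 13 RGD ligands 10 rose and 1 fell (median 0.73). Spp1, which encodes osteopontin, rose by 2.51 (SE 0.33), Tnc, which encodes tenascin C, rose by 1.78 (SE 0.27), and Fbln5 fell by 0.79. The all-gene median was 0.01, and these counts stand beside 26.1% of all genes higher and 26.6% lower.

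Inside the cell, 7 of 20 adhesion plaque genes rose and 3 fell (median 0.15). Parvb, a parvin that joins the integrin-linked kinase complex, rose by 1.28 (SE 0.20) and Fermt3 by 0.91 (SE 0.30), the latter from a mono-culture mean of 0.311 CPM. Zyx, which encodes the tension-sensitive protein zyxin, fell by 0.43 and Parva fell by 0.27. Of 7 integrin inactivators 2 rose (Kank1 1.11, Dok1 0.80) and 3 fell, among them Kank2 by 0.44 and Itgb1bp1 by 0.31. Of 9 other integrin subunits 5 rose and 3 fell (median 1.06). Itgb4, which is also in the epithelial marker list, rose by 2.46 (SE 0.52), Itga9 by 2.25 (SE 0.43), and Itgb2, a leukocyte β chain, fell by 1.34 and Itgb8 by 0.46.

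By Pearson r of log2 group means over the 9 groups and 11685 candidate genes, the gene whose pattern was most like that of each member was Col12a1 for Itga1 (0.98), Angptl2 for Itga2 (0.98), Emb for Itga11 (0.98), Atxn10 for Itga3 (0.95) and Fbxo30 for Itga5 (0.98). For the rest it was Rarres1 for Itga8 (0.98), Nrbf2 for Itgav (0.99), Gdap2 for Itgb1 (0.996), Arhgef3 for Itgb3 (0.98) and Chn1 for Itgb5 (0.96). With 9 points and this many candidates, a high r is found readily.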

How the data were processed

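RNA was made into poly(A), strand-specific libraries from 200 ng of RNA with 14 PCR cycles and sequenced as 76-base pairs. The authors deposited counts of reads per gene, and a second table in which the authors deposited RPKM values; the submitters' processing notes name STAR, featureCounts, edgeR and mm10, and versions are not given in the sources used here. Groups came from the labels. Counts were filtered with edgeR's filterByExpr, scaled by TMM and fitted in edgeR 4.0.16 (R 4.3.3) with a quasi-likelihood test over all 9 groups; genes were called at an adjusted p of 0.05 (Benjamini-Hochberg). Standard errors are on the log2 scale. Ratios of RPKM were tested by exact two-sided permutation. DESeq2 1.42.0 and limma 3.58.1 were alternatives, and the edgeR steps were tested on simulated data. The members, lists and tests were chosen with earlier results of these data known. The genes named from each list were the 2 highest and 2 lowest fold changes in the mean contrast among those past the threshold. Col1a1 was chosen after its values were seen. Replicate numbers from the labels were not treated as pairs.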

Additional observations from a re-analysis of the deposited data

Results flagged for a closer look

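In 9 of 90 sets of 4 libraries, 1 library stood apart from the other 3 by Dixon's ratio of its gap to the range, where chance gives about 4.5. The ratio was taken on log2 CPM, while the levels are printed as CPM. Clone K replicate 4 did so in 3 genes: Itga11 (29.3 CPM against 67.1 to 79.5, ratio 0.831), Itga5 (188 against 278 to 286, ratio 0.930) and Itgb1 (1080 against 1415 to 1468, ratio 0.879). The others were clone V replicate 2 for Itga1 (ratio 0.895), clone H replicate 3 for Itga2 (0.960), mono-culture replicate 2 (0.869) and clone H replicate 4 (0.930) for Itgav, and clone N replicate 2 (0.857) and KPC1 replicate 2 (0.837) for Itgb1.

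Every member other than Itga2 differed between the 8 co-cultures by the edgeR F-test, beside 72% of all 14439 genes. With that share, the calls do not set the integrins apart from other genes. The adjusted p was 9.2e-07 for Itga8, 2.2e-06 for Itga11, 1.1e-04 for Itgb1, 1.6e-04 for Itgb3 and 1.6e-04 for Itga5. It was 0.0045 for Itga3, 0.0083 for Itgb5, 0.015 for Itga1 and 0.046 for Itgav. Itga2 had an adjusted p of 2.2e-05, after a filter it passed only through the co-cultures, and is not counted here.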

How the results depend on the processing

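Of 4209 log2 fold changes of members recomputed under the alternatives, none that was called reversed, 105 lost their call, 53 gained one, and 17 that were called under neither setting changed sign. Most came from leaving out 1 library, where 3141 kept their status, 73 lost their call and 26 gained one. In the comparisons of single lines most libraries left out were in neither group compared, so the total says little about stability. Counts here are over all 10 members, Itga2 included, although it passed the filter only through the co-cultures. Without Itga2 the main fit called 3 members in clone E, 4 in clone M and 7 in the mean contrast. The share of all genes called is not given beside the member counts below. Those counts therefore describe how calls depend on the setting, and are no result about the integrins. In clone E, where 4 members were called, DESeq2 called 7, an adjusted p threshold of 0.1 called 8, a fit of only the 8 libraries compared called 8, and the fit with a replicate block called 8. Of 32 same-numbered pairs with mono-culture 5 had deviations that correlated above 0.1, and of 112 among the co-cultures 63 did (median 0.14, against -0.02 for different numbers). With their own number, 24 of 36 libraries correlated best, a hint from the data and not from the labels. Under the replicate block no call against mono-culture was lost and 6 were gained, all 10 members passed the F-test, and 33.2% of gene and pair combinations were called. In clone M, where 5 were called, no filter on low counts and limma on log2(RPKM + 1) or log2(RPKM + 0.1) each called 3. Leaving out 1 library gave 3 to 7 members in clone E (3 without clone E replicate 2), 2 to 5 in clone M (2 without clone M replicate 2) and 5 to 8 in the mean contrast (5 without mono-culture replicate 3, with Itga1, Itga8 and Itgb1 lost). The cause was not tested. In the mean contrast Itga1 and Itgb1 also missed the threshold with no scaling beyond library size (adjusted p = 0.079 and 0.065) and with limma. The F-test call of Itgav among the lines was lost on leaving out any of 16 libraries. No ratio moved by 1 SD of the libraries, but leaving out 1 of 4 libraries cannot shift a mean that far. Counts in place of RPKM gave the same differences, because gene length cancels. The ratios were therefore not tested for stability by these settings. With 0 to 8 counts in mono-culture, folds of Itga2 are limited by depth.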
